A study of Mus musculus with 6 samples.

Results

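miR-150 is a microRNA of the Mir150 hairpin, and its 2 mature strands, mmu-miR-150-5p and mmu-miR-150-3p (written below without the species prefix), were followed across all 6 libraries of the series. They were chosen by name from the 1184 miRNAs of the deposited table, in which both were listed, and 1 of the 2, miR-150-5p, passed the filter on low values. The cells were GMLPs, progenitors sorted from the bone marrow of mice and cultured for 3 days with DOX (doxycycline, by which inducible transgenes are commonly switched on). ME mice (n = 3) carried MLL-ENL, a fusion gene of acute leukaemia, and L28BME mice (n = 3) carried LIN28B beside MLL-ENL. Both groups therefore share the fusion gene and the DOX culture, and they differ by LIN28B, an RNA-binding protein of fetal cells. The labels used here do not give the age of the mice, the promoters of the transgenes, or whether the libraries of a group came from separate mice, so the spread behind each p-value is that between libraries and could be technical.

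miR-150 is known as a miRNA of mature lymphocytes that represses Myb, a transcription factor that keeps blood progenitors immature and dividing. In human and mouse MLL-rearranged leukaemia, low mature miR-150 has been described as the product of a block in maturation, in which the fusion protein, MYC and LIN28 take part, and Myb and Flt3 have been named as the targets that are then relieved. LIN28 proteins are best known for holding back the let-7 family by binding its precursors. The comparison of L28BME with ME shows how much mature miR-150 each group held. Precursors and target mRNAs were not measured in these libraries.

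Mir150 lies on mouse chromosome 7 (GRCm38, 45121757 to 45121821, plus strand, GENCODE M21) and overlaps no other annotated gene. It ends 95 bases before Gm45552, an antisense RNA gene. On the other side, 17905 bases away, lies Fcgrt, which encodes the neonatal Fc receptor. Of the mature strands of the hairpin, miR-150-3p alone had a sequence available, so the sequence and seed of the other strand are not shown. The mature sequence of miR-150-3p follows, with its seed (bases 2 to 8, the part that pairs with targets) in capitals (RefSeq, GRCm38.p6, chr7:45121798-45121819, plus strand).
miR-150-3p: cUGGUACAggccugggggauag
This seed was shared with 0 other mature names among the 1679 that RefSeq lists.

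Totals were 4778027 to 5528960 reads for ME libraries and 2745970 to 4332618 for L28BME libraries. let-7 strands took 26.3% to 27.6% of miRNA reads in ME and 3.25% to 3.33% in L28BME, so that any share of all reads is affected by the loss of let-7. The values used below are the authors' deposited scaled values, for which the divisor of each library equals its read total times a TMM factor (a factor that aligns the bulk of features between libraries). Libraries of 1 group were distinct beyond counting noise (chi-square divided by its degrees of freedom, 14.9 to 79.7). Markers of myeloid and other blood cells were abundant in both groups: miR-223-3p and miR-142a-3p averaged 81003 and 55716 in ME, and 80283 and 59415 in L28BME.

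Mature miR-150-5p was present at a moderate level in both groups, and its mean was 1.13-fold lower in L28BME, a difference within the spread between libraries. The scaled values of miR-150-5p were 441, 362 and 349 in ME libraries 001, 002 and 003. In L28BME libraries 004, 005 and 006 they were 315, 370 and 339. The ranges overlapped: library 005 was above 2 of the 3 ME libraries, and ME library 001 alone was higher than every L28BME library. The ME mean was 384 ± 49.5 and the L28BME mean 341 ± 27.9 (SD, n = 3). The change on the log2(value + 1) scale was -0.17 (SE 0.11), with a 95% interval from -0.39 to 0.060, and limma's trend test gave an adjusted p = 0.192. As a ratio the interval runs from 0.763 to 1.04, so a fall of miR-150-5p to less than 0.763 of its ME level lies outside it with this scaling. The background was high: 56.1% of the 387 tested miRNAs passed the same test, and the groups did not overlap for 61.5%. In the authors' deposited table miR-150-5p has a log2 fold change of -0.17 and an FDR p-value of 0.370.

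**Figure D1:**
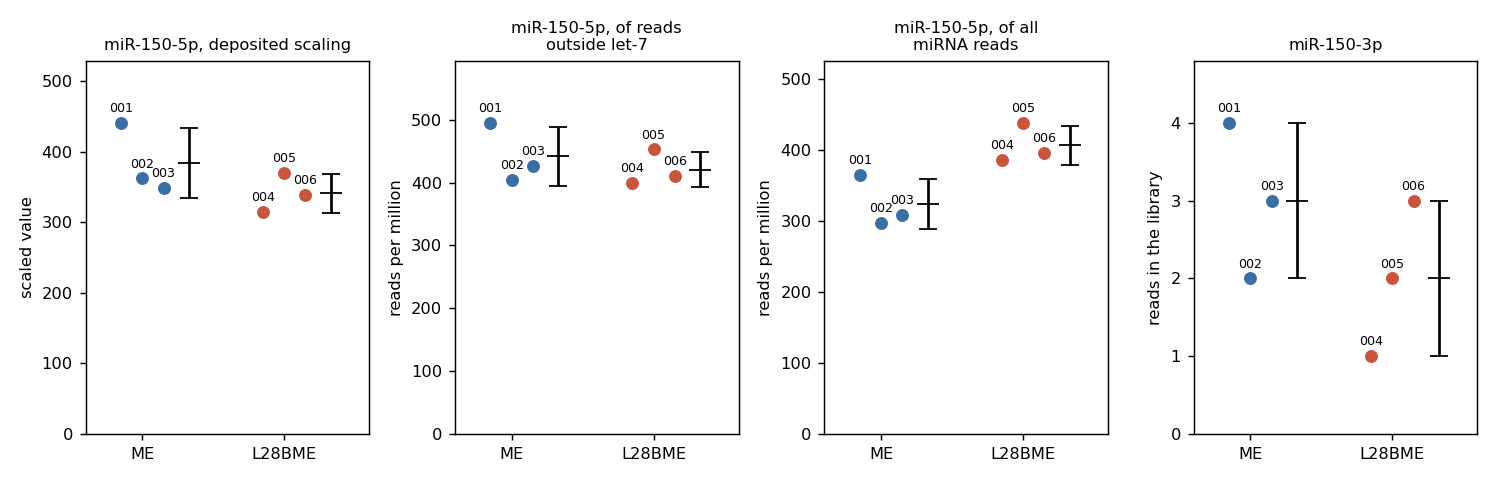
Levels of miR-150-5p and miR-150-3p in each library, with library numbers above the points; the bar beside each group is the mean ± SD (n = 3). From left to right the y axes are the deposited scaled value, reads per 1000000 miRNA reads outside let-7, reads per 1000000 of all miRNA reads, and reads of miR-150-3p. The 3 ME and 3 L28BME values overlap in every panel but the third, where the L28BME libraries (386 to 438) lie above the ME libraries (298 to 365).

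The direction of this small difference depended on what miR-150-5p was measured against. As a share of all miRNA reads it took 365, 298 and 309 reads per 1000000 in ME and 386, 438 and 397 in L28BME, so every L28BME library was higher. With that plain library-size scaling limma gave a log2 change of 0.33 (95% interval 0.13 to 0.54, adjusted p = 0.00615), past the threshold and upward. Under this scaling the median over all tested miRNAs was 0.49, and it called 63.3% of 403 tested miRNAs higher and 8.19% lower, and left the groups without overlap for 72.7%. miR-150-5p lay 0.16 below that median, and with the deposited scaling it lay 0.15 below a median of -0.014. Against reads outside let-7, which leave the lost family out of the total, the shares were 495, 405 and 427 reads per 1000000 in ME and 399, 453 and 410 in L28BME. These values, with means of 442 ± 46.9 and 421 ± 28.3 (SD, n = 3), overlapped, and an exact permutation test over libraries gave p = 0.6 (two-sided; the smallest that 3 against 3 libraries allow is 0.1). None of these scalings gives amounts per cell. In bulk libraries fewer cells of a type and less miRNA per cell cannot be told apart.

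**Figure D2:**
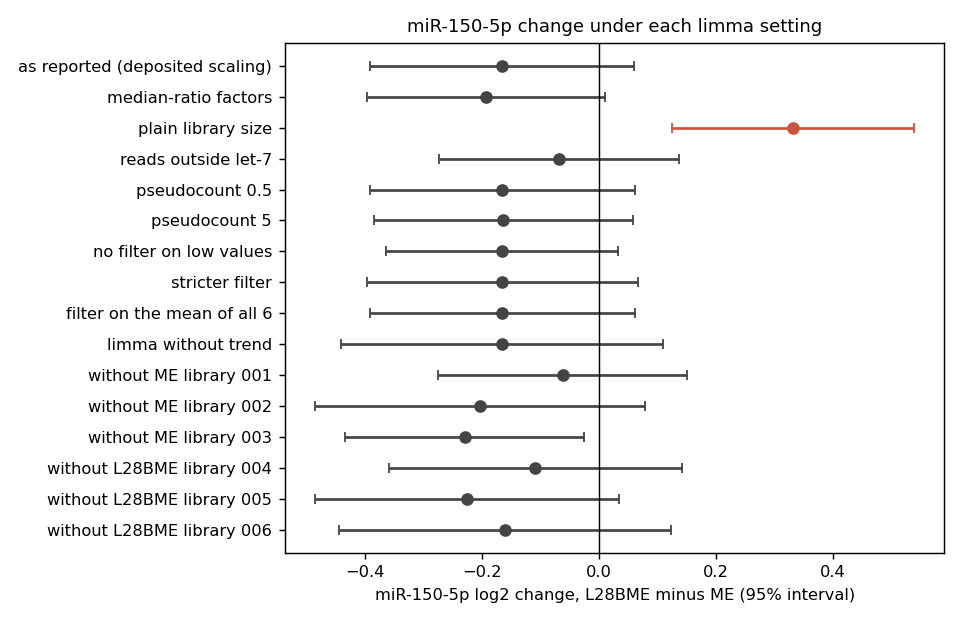
Change of miR-150-5p between L28BME and ME under each limma setting; the x axis is the log2 change, L28BME minus ME, points are estimates and bars are 95% intervals, with red for an adjusted p under 0.05. The estimate is -0.17 as reported, 0.33 with plain library size and -0.068 with reads outside let-7.

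One library set much of the size of the difference. Without ME library 001, the highest for miR-150-5p, the log2 change was -0.063 (limma adjusted p = 0.620). Without ME library 003, the lowest of its group, it was -0.23 and just missed the threshold (limma adjusted p = 0.0511). Counting error was small beside this spread. The libraries held 1084 to 1901 reads of miR-150-5p, for which counting alone gives a coefficient of variation of 2.29% to 3.04%, whereas the scaled values varied by 12.9% in ME and 8.17% in L28BME. This spread was near the middle of all tested miRNAs, with a pooled SD of 0.152 on the log2 scale against a median of 0.151.

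The other strand of the hairpin was almost absent from both groups. miR-150-3p had 4, 2 and 3 reads in ME libraries 001, 002 and 003, and 1, 2 and 3 reads in L28BME libraries 004, 005 and 006. The groups overlapped, and the deposited scaled values were 0.694 ± 0.244 in ME and 0.533 ± 0.377 in L28BME (SD, n = 3), under the filter of 5 in 3 libraries. Pooled over a group, 9 reads in ME and 6 in L28BME gave a scaled ratio of 0.685 with an exact 95% interval from 0.201 to 2.15, which covers counting error only. A 2-fold fall or rise of miR-150-3p was not detectable at this depth. The authors' deposited table gives miR-150-3p a log2 fold change of -0.54 and an FDR p-value of 0.699.

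The balance of the strands needs no scaling between libraries, because both are read in the same library. miR-150-3p made up 0.179% of all miR-150 reads in ME (9 reads beside 5014 of miR-150-5p, exact 95% interval 0.0820% to 0.340%) and 0.139% in L28BME (6 beside 4313 reads, 0.0510% to 0.302%), so nearly all reads of the hairpin were of the 5p strand in both groups. Per 100 reads of miR-150-5p the libraries held 0.210, 0.122 and 0.204 reads of miR-150-3p in ME. In L28BME they held 0.0601, 0.128 and 0.277. The groups overlapped, and an exact permutation test of the log ratio gave p = 0.7 (two-sided). The direction of the difference turned when L28BME library 004, with its single read, was left out (log2 difference -0.43 with it and 0.12 without).

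The rank of miR-150-5p among all miRNAs overlapped between the groups. It stood at 94, 110 and 107 by level in ME libraries 001, 002 and 003, of 893 to 912 miRNAs with a read. In L28BME libraries 004, 005 and 006 it stood at 104, 97 and 102, of 875 to 954. With let-7 left out its ranks were 84 to 100 (ME) and 94 to 101 (L28BME). Of the 386 other tested miRNAs 99 had a smaller absolute change, and of the 100 closest to it in mean level 69 passed the test. The next above it in level were miR-466b-3p (log2 change 0.16, limma adjusted p = 0.151) and miR-130b-5p, with a called fall (log2 change -0.27, limma adjusted p = 0.0153) that did not pass without library 002, 005 or 006 (adjusted p of 0.0533 to 0.0797) or with reads outside let-7 (0.119). miR-466b-3p passed with reads outside let-7 and with plain library size (adjusted p = 0.0184 and 4.66e-06). The next below were miR-872-5p (-0.26, limma adjusted p = 0.0521) and miR-16-1-3p, the opposite strand of a miR-16 hairpin, which rose by 0.27 (limma adjusted p = 0.0370) and did not pass without library 003, 004, 005 or 006 (adjusted p of 0.0695 to 0.127) or with limma without trend (0.0767). miR-872-5p passed without library 001 and with median-ratio factors (adjusted p = 0.00991 and 0.0255).

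**Figure D3:**
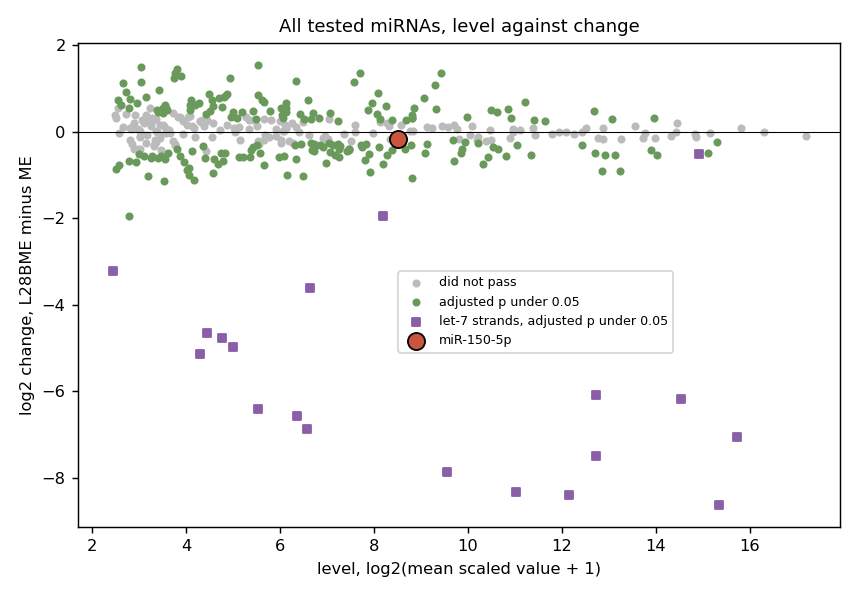
Change against level for the 387 tested miRNAs; the x axis is log2 of the mean scaled value + 1, the y axis the log2 change, L28BME minus ME, and each point is a miRNA. miR-150-5p (large red point) sits at -0.17, among the grey points that did not pass, while let-7i-5p, the lowest square, sits at -8.62.

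The profile most like that of miR-150-5p belonged to miR-20a-3p, from a hairpin of the miR-17-92 cluster. Its Pearson correlation with miR-150-5p over the 6 libraries was 0.990 on the log2 scale, a description in which the libraries and their scaling are shared. miR-20a-3p had 63.5, 54.1 and 51.2 in ME and 48.0, 53.7 and 51.5 in L28BME, high in library 001 and low in library 004 as for miR-150-5p. miR-3060-3p, miR-1291, miR-23b-5p and miR-1843a-3p followed, with correlations of 0.935 down to 0.909. All 5 were picked as the highest correlations among the tested miRNAs, over only 6 libraries. Scarce miRNAs were among them, near the filter of 5. Means in ME and L28BME were 8.67 and 6.97 for miR-3060-3p, 6.59 and 5.51 for miR-1291, and 9.94 and 8.43 for miR-1843a-3p. Of these 5, miR-23b-5p passed the test, with a log2 change of -0.36 (limma adjusted p = 0.0260), and did not without library 001, 004 or 006 (adjusted p of 0.0706 to 0.111), with reads outside let-7 (0.0784) or with DESeq2 (0.0526). The others did not pass.

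Other miRNAs reported to target MYB, from human or mouse cells, moved in both directions. Of 11 listed members 10 were tested, 2 rose, 2 fell and 6 did not pass, with a median log2 change of -0.0043 beside -0.014 for all tested miRNAs, of which 24% were called higher and 32% lower. With plain library size 7 rose and 0 fell, where 63.3% and 8.19% of all tested miRNAs did. The seed of miR-150-5p was not available, so it was not compared with those of the list. The 4 members below, the most abundant and 3 that were called, show 3 seeds, none of which is the seed of the scarce miR-150-3p (seeds in capitals, RefSeq, GRCm38.p6).
miR-16-5p: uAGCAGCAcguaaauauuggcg
miR-497a-5p: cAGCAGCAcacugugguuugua
miR-34a-5p: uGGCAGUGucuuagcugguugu
miR-429-3p: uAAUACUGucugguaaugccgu
miR-16-5p, a restraint on the cell cycle, stood at 155686 ± 3289 in ME and 144701 ± 12645 in L28BME (SD, n = 3), or 409 and 425 reads for each read of miR-150-5p (limma adjusted p = 0.226). miR-15a-5p and miR-15b-5p, of the same seed, had log2 changes of 0.041 and -0.049 and did not pass. miR-34a-5p, induced by p53, averaged 1828 ± 357 in ME and fell to 1367 ± 47.1 (a log2 change of -0.40 with a limma adjusted p = 0.00986), and had 0.098 with plain library size, not past the threshold. miR-34c-5p, at values under 10, had a called log2 change of -0.51 (limma adjusted p = 0.0386) that was lost without library 001, 002, 004 or 006 (adjusted p of 0.0941 to 0.148). That call was also lost with reads outside let-7, without a filter, with DESeq2 and with plain library size (adjusted p = 0.0703, 0.0910, 0.149 and 0.738). miR-429-3p rose from 18.2 ± 2.22 to 25.6 ± 1.92 (limma adjusted p = 0.00971), a call lost without L28BME library 006 (adjusted p = 0.0583). The scarce miR-497a-5p rose, with a log2 change of 0.50 (limma adjusted p = 0.0306), a call lost without ME library 002 or L28BME library 005 (adjusted p = 0.121 and 0.135), without a filter (0.0639) and with DESeq2 (0.0865). The call of miR-34a-5p was lost without ME library 002 (adjusted p = 0.0553), where 0 members of the list were lower.

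Among 14 miRNAs studied in MLL-rearranged leukaemia, beside miR-150, 13 were tested, 4 rose, 3 fell and 6 did not pass, beside 24% higher and 32% lower over all tested miRNAs. Their median log2 change of -0.024 was near that of all tested miRNAs. With plain library size 10 rose and 1 fell, beside 63.3% and 8.19% of all tested. Those that rose were miR-126a-3p, known from stem cells of the blood, and miR-18a-5p, miR-19b-3p and miR-19a-3p of the miR-17-92 cluster, by log2 changes of 0.32 to 0.52. The cluster did not move as a whole. Of its other listed members miR-92a-3p fell, and miR-20a-5p and miR-17-5p did not pass. miR-17-5p had a log2 change of 0.0018 (limma adjusted p = 0.983), and 0.50 with plain library size, past the threshold. The calls of miR-18a-5p and miR-19b-3p were lost with limma without trend (adjusted p = 0.0566 and 0.0573). miR-146a-5p, which restrains NF-kappaB signalling, fell by 0.91 on that scale, and miR-92a-3p and miR-22-3p fell by 0.53 and 0.41 (-0.028 and 0.090 with plain library size, neither past the threshold). miR-196b-5p, encoded beside Hoxa9, and miR-20a-5p had -0.024 and -0.042 and, like miR-150-5p, did not pass (without library 003 miR-20a-5p had -0.17 and passed, limma adjusted p = 0.0318). miR-9-5p had 0.35 (limma adjusted p = 0.0570), and passed without library 002, with reads outside let-7, with limma without trend and with plain library size (adjusted p = 0.0336, 0.0208, 0.0362 and 0.000144). miR-495-3p, with means of 0.234 (ME) and 1.15 (L28BME), was too scarce to be tested.

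**Figure D4:**
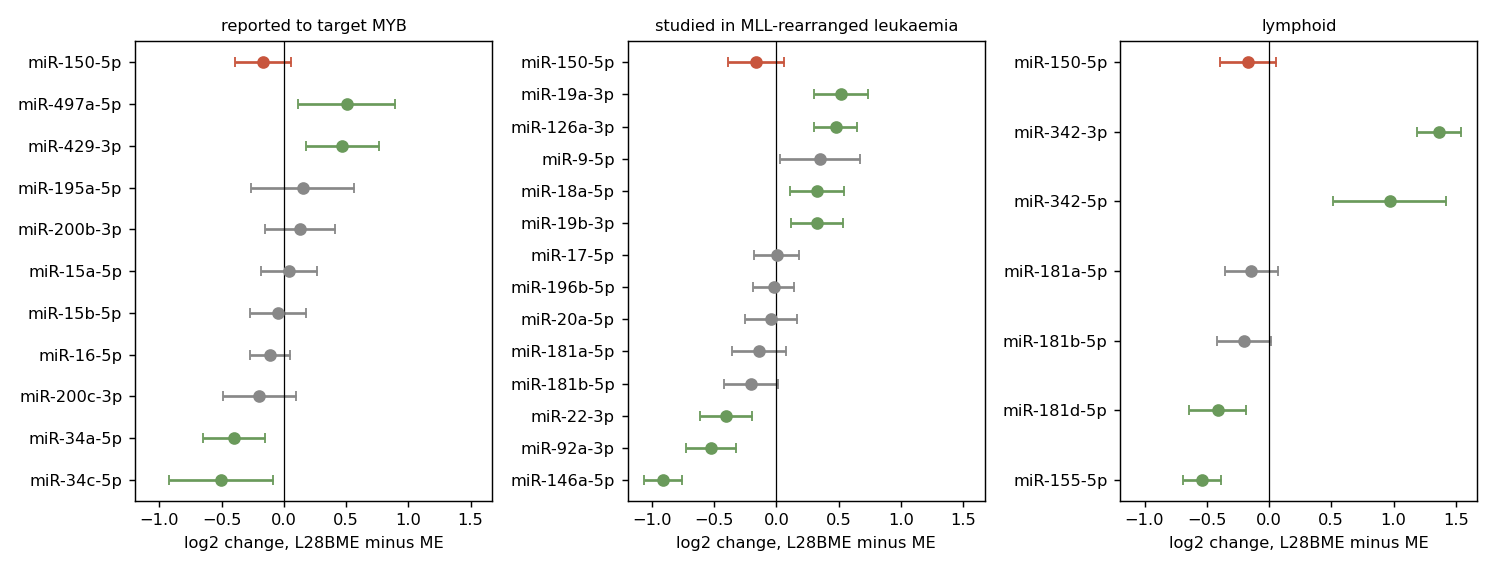
Log2 change, L28BME minus ME, of miR-150-5p (red, top row of each panel) and of the tested members of 3 lists, with 95% intervals from limma; green marks an adjusted p under 0.05 and grey the rest. The interval of miR-150-5p runs from -0.39 to 0.060, and the lymphoid panel is the one with a member above 1, miR-342-3p at 1.37.

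Of 6 lymphoid miRNAs listed beside miR-150-5p, all tested, 2 rose, 2 fell and 2 did not pass, close to the 24% higher and 32% lower over all tested miRNAs. Their median log2 change was -0.17. With plain library size 4 rose and 0 fell, beside 63.3% and 8.19% of all tested miRNAs. The ratio of each to miR-150-5p within a library is free of scaling between libraries. ME libraries 001, 002 and 003 held 0.843, 1.03 and 1.16 reads of miR-342-3p, a miRNA of the Evl intron, for each read of miR-150-5p. L28BME libraries 004, 005 and 006 held 3.18, 2.73 and 2.82, so the groups did not overlap and the mean ratio was 2.88-fold higher in L28BME. The other strand of that hairpin, miR-342-5p, went from 0.0170 ± 0.0071 to 0.0387 ± 0.0056 per read of miR-150-5p (SD, n = 3), also without overlap. Both had an exact permutation p = 0.1, which 3 against 3 libraries cannot go below, and 0.3 after adjustment over the 6 ratios. Groups did not overlap for 61.5% of all tested miRNAs with the deposited scaling and for 72.7% with plain library size. That share was not computed for ratios to miR-150-5p.

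The other ratios to miR-150-5p overlapped between the groups. miR-155-5p, a miRNA of activated lymphoid and myeloid cells, had 24.3 ± 3.74 reads per read of miR-150-5p in ME and 18.7 ± 1.94 in L28BME (SD, n = 3; exact permutation p = 0.2, and 0.4 adjusted). miR-181a-5p, of early lymphoid cells, had 5.29 ± 1.06 and 5.38 ± 1.12 (exact permutation p = 1). These means were close, while single libraries ran from 4.10 to 6.125 in ME and from 4.51 to 6.65 in L28BME. miR-181b-5p had 3.80 ± 0.8197 and 3.69 ± 0.727 (exact permutation p = 0.9). miR-181d-5p had 1.004 ± 0.171 and 0.850 ± 0.188 (exact permutation p = 0.3, and 0.45 adjusted). On their own scaled values miR-155-5p and miR-181d-5p had called log2 changes of -0.54 and -0.41 (limma adjusted p = 2.46e-05 and 0.00493), and with plain library size neither passed (-0.041 and 0.084). miR-181b-5p had -0.20 (limma adjusted p = 0.103), and passed without library 001 or 004 (adjusted p = 0.0348 and 0.0277).

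**Figure D5:**
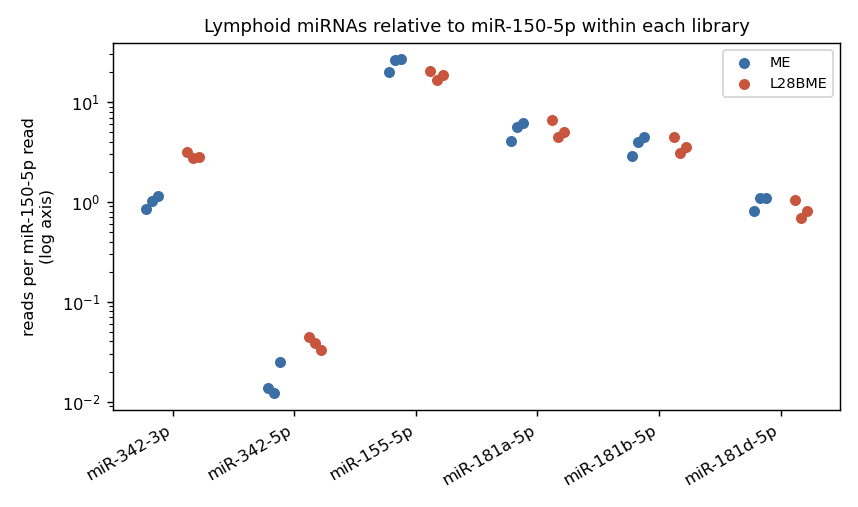
Reads of each lymphoid miRNA per read of miR-150-5p within each library, on a log axis; blue points are the 3 ME and red points the 3 L28BME libraries. For miR-342-3p the L28BME points (2.73 to 3.18) lie above the ME points (0.843 to 1.16), and for miR-181a-5p they overlap.

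The let-7 guides, which LIN28B is known to hold back, give the scale of the response beside miR-150-5p. All 10 tested let-7 guides fell (9 with plain library size), beside 32% of all tested miRNAs called lower (8.19% with plain library size). Their median log2 change was -7.28, and let-7i-5p went from 220 reads for each read of miR-150-5p in ME to 0.620 in L28BME. let-7c-5p, the guide that fell least, had a log2 change of -0.52 (limma adjusted p = 2.16e-05), against -0.17 for miR-150-5p. With plain library size let-7c-5p had -0.020 and miR-150-5p 0.33. The difference between let-7c-5p and miR-150-5p was not tested.

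Markers of other cell types differed in abundance. The 4 erythroid miRNAs listed were under the filter, with a summed scaled value of 4.41 to 7.12 in ME and 9.68 to 10.8 in L28BME, and none was at 0 in all libraries. Of 5 stromal and endothelial miRNAs 1 was tested, miR-199a-3p, which rose from 190 to 353 (limma adjusted p = 1.09e-06). The list summed to between 189 and 208 in ME and between 353 and 361 in L28BME, almost all of it miR-199a-3p. The rest were under the filter and moved both ways from ME to L28BME. Mean values of miR-199a-5p (0.613 to 0.0789) and miR-10b-5p (2.90 to 1.73) were lower. Those of miR-143-3p (1.75 to 2.59) and miR-145a-5p (0.0736 to 0.287) were higher. The 4 lymphoid markers, miR-150-5p among them, summed to 11427 to 12237 in ME and 9223 to 9876 in L28BME, mostly through miR-155-5p. Of 6 epithelial, liver, muscle and nerve markers 4 were listed and 2 tested, and these 2 went opposite ways. miR-203-3p had a log2 change of -0.46 (limma adjusted p = 0.00124), and 0.036 with plain library size, not past the threshold. miR-122-5p had 0.16 (limma adjusted p = 0.473) and did not pass, but passed with plain library size (0.61, limma adjusted p = 0.00440). The part of these cells in the level of miR-150-5p was not tested.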

How the data were processed

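Total RNA was sequenced with the QIAseq miRNA kit, per the labels' protocols, on the genome build GRCm38, per the submitters' processing notes. Which aligner and counter were used, and how molecular identifiers were treated, is not given in the sources at hand. A table of 1184 miRNAs and 268 piRNAs (1452 rows) was deposited, with a scaled signal for each library, named CPM per the file headers but not summing to 1000000, log2 fold changes and p-values. Dividing the deposited signal by the worth of 1 read gave whole numbers for 100% of values (tolerance 0.001), which are the reads used here. Libraries are named by the numbers in the column names, 001 to 006.

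The 387 miRNAs that reached a value of 5 in 3 or more libraries were fitted with limma's trend test (two-sided) on log2(value + 1), group as the term, with calls below 0.05 after Benjamini-Hochberg adjustment over all of them. This scale understates the change of scarce miRNAs. Strand ratios and shares were compared by exact permutation over libraries. Intervals for pooled reads are exact (95%) and cover counting error only. The members, lists and tests were chosen with earlier results of these data known. Besides miR-150, the miRNAs named are the 4 nearest in level, the 5 nearest in profile, and list or marker members that are abundant or complete a count. The code was tested on simulated data. Sequences are from RefSeq (17 of 19 names matched, 1 of the 2 miR-150 strands) and loci from GENCODE M21. Fits used limma 3.58.1 in R 4.3.3, with DESeq2 1.42.0 and edgeR 4.0.16 as alternatives; plots used matplotlib 3.10.9.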

Additional observations from a re-analysis of the deposited data

How the results depend on the processing

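Alternatives were other scalings, pseudocounts of 0.5 and 5, other filters (none, 20 in 3 libraries, a mean of 5), limma without trend, edgeR, DESeq2 and each library left out; counts over the lists were added after the data were seen. No paired analysis was possible because replicate numbers are absent from the column names, so the planned block was not run. miR-150-5p kept its direction and stayed short of the threshold in 16 of 17 alternatives. Other filters and limma without trend leave the estimate itself unchanged (-0.17), so in those settings its direction could not turn. Pseudocounts of 0.5 and 5 hardly move it (-0.17 and -0.16). Without single libraries the log2 change of miR-150-5p ran from -0.23 to -0.063. With plain library size miR-150-5p turned to 0.33, and as a share of all miRNA reads or of all reads in the table to 0.33 and 0.33 (log2). The share outside let-7 ran from -0.13 to 0.015 (log2) and the log2 strand ratio from -0.99 to 0.12 without single libraries. miR-150-3p was tested only without a filter (log2 change -0.16, limma adjusted p = 0.687). The number of called miRNAs, 217, stayed within 162 to 288. Of the MYB list 1 to 7 were higher and 0 to 2 lower.

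Plain library size also turned miR-15b-5p (0.45), miR-16-5p (0.39), miR-34a-5p (0.098), miR-196b-5p (0.48), miR-22-3p (0.090), miR-181a-5p (0.36), miR-181b-5p (0.30), miR-181d-5p (0.084), miR-20a-5p (0.46), miR-20a-3p (0.36), miR-23b-5p (0.12), miR-130b-5p (0.23), miR-872-5p (0.24), miR-3060-3p (0.17), miR-1291 (0.23) and miR-1843a-3p (0.25). Reads outside let-7 turned miR-15b-5p (0.048), miR-196b-5p (0.074) and miR-20a-5p (0.056), and DESeq2 turned miR-196b-5p (0.00016). The cause was not tested. Without single libraries miR-15a-5p ran from -0.096 to 0.12, miR-15b-5p from -0.15 to 0.074, miR-196b-5p from -0.058 to 0.031, miR-20a-5p from -0.17 to 0.055 and miR-1291 from -0.30 to 0.0031. Depth limits miR-150-3p, at 1 to 4 reads a library.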
